A study of Mus musculus with 8 samples.

Results

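Fibrinogen and 6 other genes of proteins that the liver releases into plasma were examined in kidney RNA of diabetic mice: *Fga*, *Fgb* and *Fgg*, which encode the alpha, beta and gamma chains of fibrinogen, and *Ttr*, *Alb*, *Ahsg*, *Serpina1a*, *Hp* and *Trf*. The members were taken by gene symbol, and all 9 were found among the 55401 genes of the table. They were selected on the FPKM of these same libraries and on the difference between the treatment groups in them, so their values in the 2 groups are given as a description, with no test. Poly(A) RNA was sequenced in 8 kidneys, 1 library per mouse, 4 from mice given rFGF4 (mice 1, 2, 3 and 5) and 4 from controls of the same model (mice 2, 3, 4 and 5). rFGF4 is a recombinant, N-terminally truncated form of human fibroblast growth factor 4, which was injected intraperitoneally every other day, and the controls, called vehicle here, received PBS. The labels give the control genotype as db/db and give the rFGF4 group by its treatment, and the design text places both groups in db/db mice, which lack a working leptin receptor. The study's account of the sequenced kidneys names streptozotocin-treated mice instead, and the files do not settle which diabetes model they hold. No sample without diabetes was sequenced, and the methods name the renal cortex for RNA used in PCR, while the labels of the sequenced samples say kidney.

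Fibrinogen is assembled in hepatocytes from pairs of its 3 chains, and thrombin turns it into fibrin, the mesh of a clot. Its genes sit in 1 cluster and are known as acute phase genes, which the liver raises under interleukin-6 and STAT3 together with the factors HNF1 and C/EBP. The kidney receives the plasma proteins by filtration and takes them up in the proximal tubule through megalin and cubilin, while its own cells are known to transcribe a subset of the same genes. Fibrinogen chains in particular are known from injured tubules and their surroundings. In bulk tissue fewer cells of a type and less RNA per cell cannot be told apart.

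The cluster lies on chromosome 3 of GRCm38, with *Fgg* at chr3:83007724-83015049 and *Fga* at chr3:83026076-83033627 on the plus strand and *Fgb* at chr3:83040141-83049863 on the minus strand. The 250 bases before each RefSeq transcription start (GRCm38.p6) are shown because the 3 chains shared nearly the same order of mice, as described later. Each is written 5′ to 3′ on the strand of its gene, and capitals mark matches to 4 motifs: CTGGGA (the core of the interleukin-6 response element of class II), GTTAAT (an HNF1 half-site), TTCNNNGAA (the STAT palindrome) and TTGCNNAA (a C/EBP site). The windows span chr3:83007474-83007723 for *Fgg*, chr3:83025903-83026152 for *Fga* and chr3:83049864-83050113 for *Fgb*. For *Fga* the RefSeq start lies downstream of the gene start given above, which is that of GENCODE, so the last part of its window, with the HNF1 match named below, lies inside the gene as GENCODE draws it. The starts of *Fgg* and *Fgb* were the same in both.
Fgg: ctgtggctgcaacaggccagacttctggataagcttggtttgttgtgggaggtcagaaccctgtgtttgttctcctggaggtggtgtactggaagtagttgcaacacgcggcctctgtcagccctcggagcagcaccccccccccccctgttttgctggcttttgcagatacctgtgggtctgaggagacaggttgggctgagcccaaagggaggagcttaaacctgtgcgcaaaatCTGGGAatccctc
Fga: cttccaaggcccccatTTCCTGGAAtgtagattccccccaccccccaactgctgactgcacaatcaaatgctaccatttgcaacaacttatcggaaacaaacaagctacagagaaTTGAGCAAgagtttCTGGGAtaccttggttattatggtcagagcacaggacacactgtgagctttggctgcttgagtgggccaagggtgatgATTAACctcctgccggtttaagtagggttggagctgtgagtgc
Fgb: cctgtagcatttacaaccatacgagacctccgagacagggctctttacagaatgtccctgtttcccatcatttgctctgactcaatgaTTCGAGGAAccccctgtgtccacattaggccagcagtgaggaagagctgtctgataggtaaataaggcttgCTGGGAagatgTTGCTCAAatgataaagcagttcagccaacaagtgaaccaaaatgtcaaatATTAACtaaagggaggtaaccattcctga

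Both strands were searched, and the motifs were chosen after the sequences had been read. Positions give the first base of a match relative to the start. CTGGGA stood at -121 in *Fga*, at -91 in *Fgb* and at -13 in *Fgg*. The *Fga* and *Fgb* windows each held all 4 motifs. In *Fga* these were TTCCTGGAA at -234, the C/EBP letters on the opposite strand at -135 and the HNF1 letters on the opposite strand at -43. In *Fgb* they were TTCGAGGAA at -162, TTGCTCAA at -80 and the HNF1 letters on the opposite strand at -29. None of the matches in the *Fga* and *Fgb* windows overlapped another. *Fgg* matched CTGGGA alone. A match is a run of letters and not a site in use: of 32851 RefSeq windows of the same length, 27.0% held CTGGGA, 6.43% GTTAAT, 7.02% TTCNNNGAA and 9.56% TTGCNNAA. RefSeq windows were found for 6 of the 9 members. GTTAAT was also found in *Alb* at -32 and *Serpina1a* at -21, and the C/EBP letters on the opposite strand in *Alb* at -94 and in *Ahsg* at -32.

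Values are FPKM, fragments scaled to exon length and to the mapped reads of the library, so levels of different genes are compared per length. The summed FPKM of a library was 389407 to 529835 in rFGF4 mice and 481321 to 552604 in vehicle mice, and the relative depth, estimated from the FPKM steps of low genes, was 0.904 to 1.09 and 1 to 1.12 times that of vehicle mouse 2. The table holds no read counts, so the counting error of a value is unknown. Of all genes, 15150 reached 0.5 FPKM in at least 4 libraries and were compared with limma on the log2(FPKM + 1) scale, and all 9 members were among them. Across these genes, 231 (1.52%) had both a p below 0.05 before adjustment and a 1.5-fold difference, the study's threshold, 165 of them higher (1.09%) and 66 lower (0.436%) in rFGF4 mice, while 0 passed an adjusted p of 0.05 and 700 (4.62%) an unadjusted one. The smallest adjusted p was 0.918 (limma, Benjamini-Hochberg), which holds for each gene called below. The log2 fold change of all tested genes had a median of 0.09, and 67.1% of them lay above 0. With the libraries scaled to a common median ratio the median was -0.01. The library of rFGF4 mouse 1 stood apart: the median ratio of its genes to the common level was 1.30, and it had the lowest summed FPKM. Members are also given without single libraries.

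Kidney markers were present in every library, with a summed FPKM of 1607 to 9554 for 10 proximal tubule genes. The liver label of the set was checked against 20 hepatocyte enzymes and transporters. Of these, 10 stayed under 0.5 FPKM in all 8 libraries, including *Cps1* of the urea cycle (at most 0.15), *Cyp7a1*, the rate-limiting enzyme of bile acid synthesis (at most 0.0136), *Cyp3a11* (at most 0.115) and the hepatic transporter *Slco1b2* (at most 0.0436). Of the 7 tested genes of this list 0 passed the threshold in either direction, and their median log2 fold change was -0.24. The median turned to 0.19 without rFGF4 mouse 1, to 0.12 with a replicate block and to 0.0053 without the filter on low values.

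The members covered a wide span of levels. By the median over 8 libraries *Serpina1a* stood first with 221 FPKM, followed by *Ttr* (29.7), *Fgg* (25.8), *Fga* (25.6), *Trf* (20.6), *Alb* (9.56), *Hp* (5.67), *Fgb* (2.32) and *Ahsg* (1.02). Among neighbours in this order, the ranges over the libraries were separate for *Serpina1a* and *Ttr* and for *Trf* and *Alb*, and every other pair of neighbours overlapped. The 9 genes together made up 0.0583% to 0.174% of the summed FPKM in rFGF4 mice and 0.0427% to 0.0927% in vehicle mice, and *Serpina1a* alone held 39.0% to 81.8% of that share. On the log2(FPKM + 1) scale 8 of the 9 members had a higher mean in rFGF4 mice, and the median of their log2 fold changes was 0.60. A log2 fold change of at least that of 1.5-fold was found for 5 members, *Fga*, *Fgb*, *Fgg*, *Ttr* and *Serpina1a*, where 3.44% of all tested genes reached it in this direction and 1.66% in the other, which *Hp* reached as well. In 0 of the 9 members did the groups separate, against 3.33% of all tested genes, 2.66% of them with rFGF4 higher. Since the set was named from this contrast, nothing is read from these counts.

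**Figure D1:**
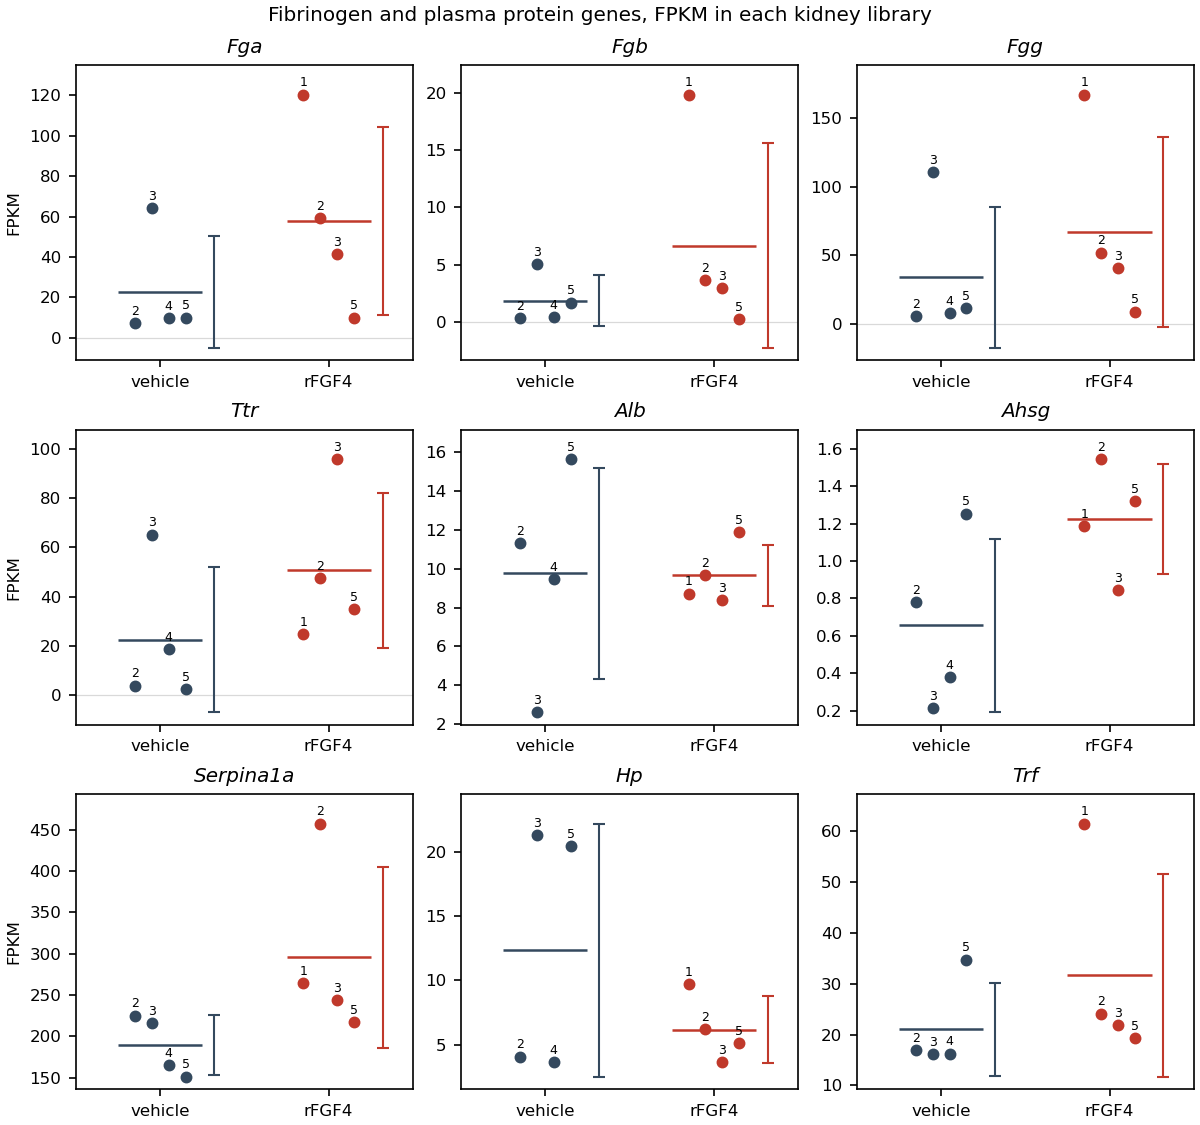
FPKM of each of the 9 genes in each kidney library, by group on the x axis and in FPKM on the y axis, with 1 point per mouse labelled by its number, a line at the group mean and a bar of 1 SD (n = 4). The points of the 2 groups overlap in every panel, and *Fga*, *Fgb* and *Fgg* share vehicle mouse 3 and rFGF4 mouse 1 as their highest points.

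The alpha chain gene *Fga* (ENSMUSG00000028001) measured 120.4, 59.3, 41.3 and 10.0 FPKM in rFGF4 mice 1, 2, 3 and 5 and 7.26, 64.1, 9.73 and 10.0 FPKM in vehicle mice 2, 3, 4 and 5. Most rFGF4 mice were high and most vehicle mice low, but vehicle mouse 3 lay above 3 of the 4 rFGF4 mice and rFGF4 mouse 5 lay among the low vehicle mice. The means were 57.7 ± 46.5 FPKM (SD, n = 4) with rFGF4 and 22.8 ± 27.6 (SD, n = 4) with vehicle, and the log2 fold change was 1.44 (standard error 0.85). It was 0.94 without rFGF4 mouse 1 and 2.11 without vehicle mouse 3.

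The gamma chain gene *Fgg* (ENSMUSG00000033860) measured 167, 51.9, 40.3 and 8.81 FPKM in rFGF4 mice 1, 2, 3 and 5 and 5.72, 111, 7.85 and 11.3 FPKM in vehicle mice 2, 3, 4 and 5. It ranked the 8 mice in the same order as *Fga*, with rFGF4 mouse 1 and vehicle mouse 3 at the top and vehicle mouse 2 at the bottom. The means were 67.1 ± 69.2 and 33.9 ± 51.3 FPKM (SD, n = 4 each) and the log2 fold change 1.37 (standard error 1.07), which went from 0.72 without rFGF4 mouse 1 to 2.28 without vehicle mouse 3. *Gm30097* overlaps exons of *Fgg* on the other strand, and its reads could not be told apart if strand was not kept, but its own level was at most 0.286 FPKM.

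The beta chain gene *Fgb* (ENSMUSG00000033831), the least abundant of the 3, measured 19.9, 3.65, 2.95 and 0.230 FPKM in rFGF4 mice 1, 2, 3 and 5 and 0.317, 5.02, 0.418 and 1.69 FPKM in vehicle mice 2, 3, 4 and 5. Its 4 highest mice were those of *Fga* and *Fgg*, whereas its lowest was rFGF4 mouse 5. The ratio of the highest to the lowest library was 86.3, compared with 16.6 for *Fga* and 29.3 for *Fgg*. The log2 fold change was 0.99 (standard error 0.84), and without rFGF4 mouse 1 it was 0.27.

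The 3 chains varied together from mouse to mouse within both groups. On the log2(FPKM + 1) scale over the 8 libraries, which share the tissue, the normalization and the marker differences given next, Pearson's r was 0.986 between *Fga* and *Fgg*, 0.931 between *Fga* and *Fgb* and 0.945 between *Fgb* and *Fgg*. Their summed FPKM was 307, 115, 84.6 and 19.0 in rFGF4 mice 1, 2, 3 and 5 and 13.3, 179.9, 18 and 23.0 in vehicle mice 2, 3, 4 and 5. The balance of the chains was less constant than their order. *Fga* stood at 0.720 to 1.14 times *Fgg* in rFGF4 mice and at 0.579 to 1.27 times in vehicle mice, and its lowest ratios were in the 2 mice with the most fibrinogen transcript. *Fgb* supplied 1.21% to 6.46% of the sum in rFGF4 mice and 2.32% to 7.33% in vehicle mice. Of the tested genes, 1.64% spanned a wider log2 range over the 8 libraries than *Fga*, 1.43% than *Fgb* and 1.02% than *Fgg*.

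The neighbour of the cluster, *Plrg1*, a splicing factor gene 5659 bp from *Fgb*, stayed between 7.91 and 10.9 FPKM in rFGF4 mice and between 6.11 and 9.22 in vehicle mice (log2 fold change 0.25). *Dchs2*, the gene beyond it, reached at most 0.0141 FPKM.

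Sums of marker genes moved with the chains in part. The 15 tubular injury genes, among them *Havcr1* (kidney injury molecule 1), *Lcn2* and *Spp1*, summed to 12097, 3922, 2853 and 955 FPKM in rFGF4 mice 1, 2, 3 and 5 and to 902, 5829.5, 891 and 4002 FPKM in vehicle mice 2, 3, 4 and 5. Mice with high injury sums were those with high fibrinogen, with vehicle mouse 5 as the exception: its injury sum was close to that of rFGF4 mouse 2, but its 3 chains summed to 23.0 FPKM against 115. *Spp1* made up most of the sum in every library. It measured 10365 FPKM in rFGF4 mouse 1, 5291 in vehicle mouse 3 and 3212 in vehicle mouse 5. Of the list, only *Spp1*, *Sox9* and *Cdkn1a* were higher in vehicle mouse 3 than in vehicle mouse 5. *Havcr1* measured 15.4 and 41.7 FPKM in vehicle mice 3 and 5, and *Vcam1* 4.07 and 34.6. Macrophage genes summed to 498, 213, 68.8 and 38.9 FPKM in rFGF4 mice and to 29.0, 115, 29.4 and 534 FPKM in vehicle mice, highest in vehicle mouse 5, whose fibrinogen was low, and higher in rFGF4 mouse 2 than in vehicle mouse 3, the reverse of their fibrinogen. The proximal tubule sum was 1607, 4255, 7818 and 7659 FPKM in rFGF4 mice and 9554, 4747, 8589 and 4625 FPKM in vehicle mice, lowest in rFGF4 mouse 1. All 15 injury genes had a log2 fold change above 0, against 67.1% of all tested genes, with a median of 0.69, and 0 of 15 passed the threshold in either direction. That median was 0.17 without rFGF4 mouse 1, 0.31 without vehicle mouse 2 and -0.14 with a replicate block. The part of these markers in the fibrinogen values was not tested.

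**Figure D2:**
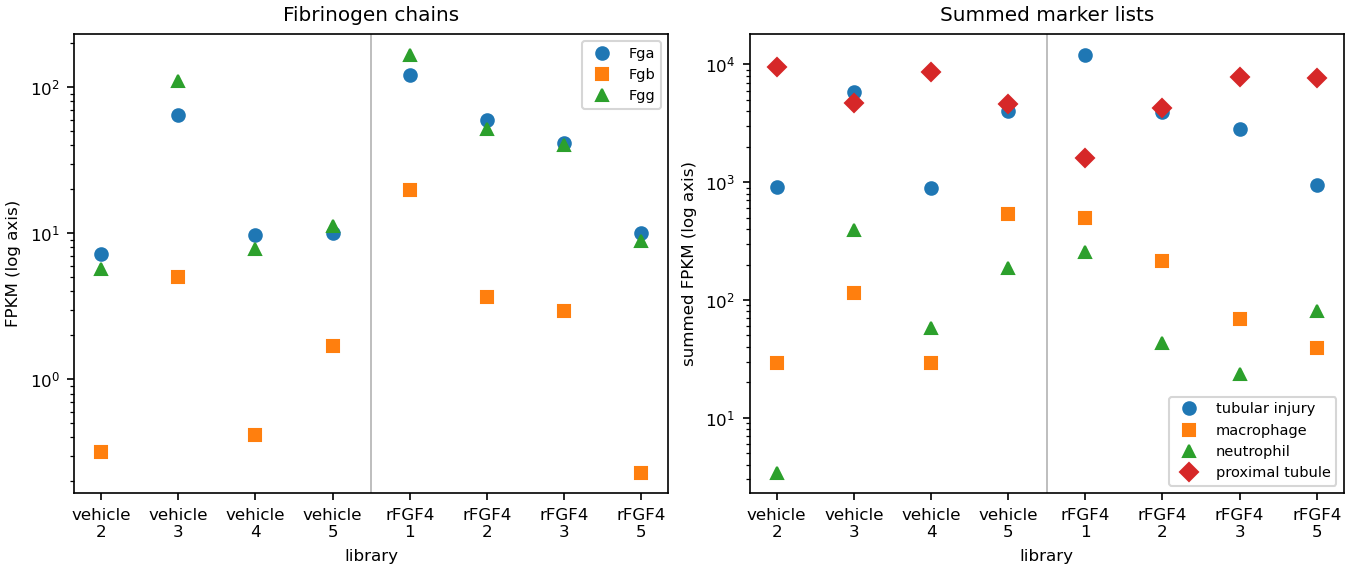
FPKM of the 3 fibrinogen chains (left) and summed FPKM of 4 marker lists (right) in each library, both on a log axis, with vehicle mice to the left and rFGF4 mice to the right of the grey line. Fibrinogen and the tubular injury sum are both high in rFGF4 mouse 1 and vehicle mouse 3, and vehicle mouse 5 is high in injury and macrophage genes with low *Fga* and *Fgg*. *Spp1* makes up most of the injury sum.

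Outside the members, the genes whose values over the 8 libraries were most like the mean log2(FPKM + 1) of the 3 chains were *Kit* (Pearson's r 0.990, Spearman's rho 1), *Gadd45a* (0.979 and 0.905), *Armcx4* (0.968 and 0.929), *Cdhr5* (0.964 and 0.857) and *Rnf183* (0.960 and 0.905). In all, 88 of the tested genes (0.581%) had an r of at least 0.9. *Kit*, a receptor tyrosine kinase, measured 3.61, 2.47, 2.27 and 1.54 FPKM in rFGF4 mice 1, 2, 3 and 5 and 1.49, 2.60, 1.63 and 1.80 FPKM in vehicle mice 2, 3, 4 and 5, the same order of mice as the fibrinogen mean within a far smaller range. *Gadd45a*, a stress-induced growth arrest gene, ran from 9.27 to 29.3 FPKM with rFGF4 and from 10.1 to 22.1 with vehicle. With the mean of each group subtracted, these r values were 0.956 to 0.988.

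Transthyretin, the carrier of thyroid hormone and of retinol-binding protein, is encoded by *Ttr* (ENSMUSG00000061808), which measured 24.6, 47.5, 95.9 and 34.8 FPKM in rFGF4 mice 1, 2, 3 and 5 and 3.85, 65.2, 18.7 and 2.25 FPKM in vehicle mice 2, 3, 4 and 5. The 4 rFGF4 mice lay above 3 of the 4 vehicle mice, and vehicle mouse 3 lay above all but rFGF4 mouse 3. The means were 50.7 ± 31.5 FPKM (SD, n = 4) and 22.5 ± 29.4 (SD, n = 4). Its log2 fold change of 1.93 (standard error 0.92) was the largest of the 9, and stayed between 1.30 without vehicle mouse 5 and 2.75 without vehicle mouse 3. Unlike the fibrinogen chains, *Ttr* did not have its maximum in rFGF4 mouse 1, and its r with *Fga* was 0.639 over the 8 libraries. *Rbp4*, the gene of its partner in retinol transport, measured 0.240 to 1.51 FPKM (log2 fold change -0.33).

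Albumin and fetuin-A are plasma carriers that the adult liver makes in quantity. By mean level *Alb* stood at percentile 72.1 of the tested genes and *Ahsg* at percentile 11.6. *Alb* (ENSMUSG00000029368, chr5:90460897-90476602, plus strand) measured 8.72, 9.67, 8.38 and 11.9 FPKM in rFGF4 mice 1, 2, 3 and 5 and 11.3, 2.62, 9.46 and 15.6 FPKM in vehicle mice 2, 3, 4 and 5. The rFGF4 mice sat within the vehicle range, and vehicle mouse 3, which was high in fibrinogen, had the lowest *Alb*. The means were 9.66 ± 1.58 and 9.76 ± 5.42 FPKM (SD, n = 4 each), with a log2 fold change of 0.17 (standard error 0.43) that turned to -0.29 without vehicle mouse 3. Pearson's r of *Alb* was -0.634 with *Fgg* and 0.705 with *Ahsg*.

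*Ahsg* (ENSMUSG00000022868, chr16:22891277-22899449, plus strand), the gene of fetuin-A, an inhibitor of mineral deposition, measured 1.19, 1.55, 0.843 and 1.32 FPKM in rFGF4 mice 1, 2, 3 and 5 and 0.779, 0.212, 0.379 and 1.25 FPKM in vehicle mice 2, 3, 4 and 5. Vehicle mouse 5 lay within the rFGF4 range and the other 3 vehicle mice below it. The log2 fold change was 0.46 (standard error 0.21), and 1.0 with a pseudocount of 0.1 FPKM in place of 1, since these levels were near the pseudocount. The related *Fetub* nearby measured 0.872 to 1.52 FPKM. Among the neighbours of *Alb*, the fetal *Afp* stayed at 0.0943 to 0.568 FPKM in rFGF4 mice and *Afm* (afamin) reached 2.57 to 15.3 FPKM with rFGF4 and 8.74 to 15.9 with vehicle.

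*Serpina1a* (ENSMUSG00000066366, chr12:103853589-103863562, minus strand) encodes alpha-1-antitrypsin, the main plasma inhibitor of neutrophil elastase, and was the most abundant member. It measured 264, 458, 244 and 217 FPKM in rFGF4 mice 1, 2, 3 and 5 and 225, 216, 165 and 152 FPKM in vehicle mice 2, 3, 4 and 5. Of the rFGF4 mice, 3 lay above every vehicle mouse, and rFGF4 mouse 5 lay between vehicle mice 2 and 3. The means were 296 ± 110 FPKM (SD, n = 4) and 189 ± 36.7 (SD, n = 4), and the log2 fold change was 0.60 (standard error 0.26), with 0.37 without rFGF4 mouse 2 as the lowest value.

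The mouse carries several related copies of this gene. Short reads can be divided wrongly among nearly identical ones, so the values of single copies are uncertain. *Serpina1b*, *Serpina1c*, *Serpina1d* and *Serpina1e* lie within 100 kb of *Serpina1a*, while *Serpina1f* does not, and how alike it is to the others was not examined. Of the 5 other copies, 2 passed the threshold upward and 0 downward. *Serpina1b* measured 195, 219, 186 and 62.0 FPKM in rFGF4 mice 1, 2, 3 and 5 and 54.5, 41.0, 46.5 and 31.3 FPKM in vehicle mice 2, 3, 4 and 5, with all 4 rFGF4 mice above all 4 vehicle mice. The log2 fold change of *Serpina1b* was 1.79 (standard error 0.39, limma, adjusted p = 0.918), and it passed the threshold in all 13 alternatives. *Serpina1c* passed with a log2 fold change of 0.65 (standard error 0.23, limma) and overlapping groups, and did so in 8 of 13 alternatives, not with scaled libraries (0.52) or without vehicle mouse 3 (0.63), vehicle mouse 5 (0.49), rFGF4 mouse 2 (0.50) or rFGF4 mouse 3 (0.61). *Serpina1d* (108 to 241 FPKM with rFGF4, 134 to 293 with vehicle, log2 fold change -0.10), *Serpina1e* (0.05) and *Serpina1f* (-0.18) did not pass. Summed over the 6 copies, the level was 651 to 1112 FPKM in rFGF4 mice and 394 to 724 in vehicle mice.

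**Figure D3:**
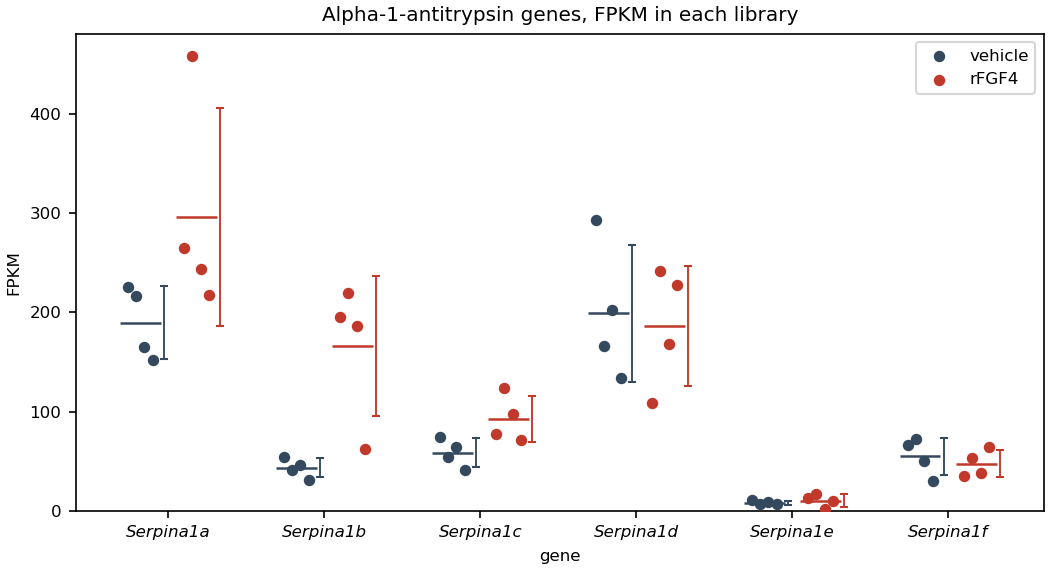
FPKM of the 6 *Serpina1* copies in vehicle (dark) and rFGF4 mice (red), with 1 point per library, a line at the group mean and a bar of 1 SD (n = 4). The groups are apart for *Serpina1b* and overlap for the other 5 copies.

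*Hp* (ENSMUSG00000031722, chr8:109575128-109579172, minus strand) encodes haptoglobin, which binds free hemoglobin, and was the 1 member with a lower mean in rFGF4 mice on the log2(FPKM + 1) scale. It measured 9.69, 6.22, 3.62 and 5.13 FPKM in rFGF4 mice 1, 2, 3 and 5 and 4.07, 21.3, 3.62 and 20.4 FPKM in vehicle mice 2, 3, 4 and 5. Vehicle mice 3 and 5 were high and the other 2 vehicle mice were at or near the lowest rFGF4 value. The means were 6.17 ± 2.58 and 12.4 ± 9.83 FPKM (SD, n = 4 each) and the log2 fold change -0.59 (standard error 0.58), between -0.97 without vehicle mouse 4 and -0.22 without vehicle mouse 3. *Hp* is also known from neutrophil granules. Neutrophil genes, led by *S100a9* and *S100a8*, summed to 258, 43.2, 23.6 and 79.9 FPKM in rFGF4 mice 1, 2, 3 and 5 and to 3.43, 396, 57.7 and 187 FPKM in vehicle mice 2, 3, 4 and 5, highest in the 3 mice that were highest for *Hp*. Of the 6 neutrophil genes 5 were tested and 0 passed in either direction, and *Ly6g* reached at most 0.604 FPKM. Their part in the *Hp* values was not tested.

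Transferrin carries iron in plasma, and its gene *Trf* (ENSMUSG00000032554, chr9:103204001-103230444, minus strand) measured 61.5, 24.1, 21.9 and 19.3 FPKM in rFGF4 mice 1, 2, 3 and 5 and 17.0, 16.1, 16.3 and 34.7 FPKM in vehicle mice 2, 3, 4 and 5. The 4 rFGF4 mice lay above 3 vehicle mice that were nearly level, and vehicle mouse 5 lay above all but rFGF4 mouse 1. The log2 fold change was 0.49 (standard error 0.39), and 0.12 without rFGF4 mouse 1. The 2 mice with the most *Trf* were also the 2 with the highest macrophage sums, 498 and 534 FPKM, and the part of those cells in the *Trf* values was not tested. *Gm20425* overlaps *Trf* on the same strand and was not analysed here.

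**Figure D4:**
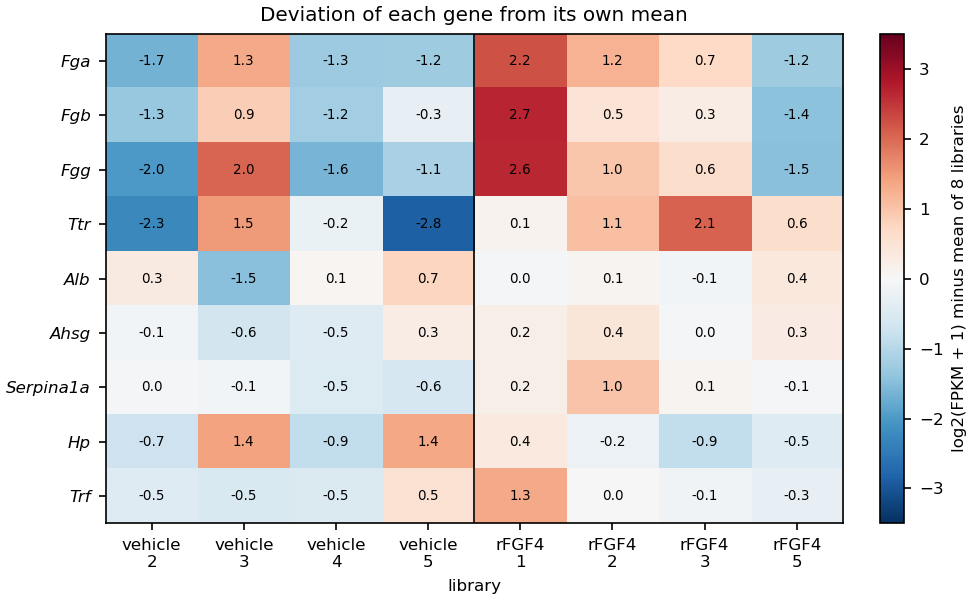
Log2(FPKM + 1) of each gene (rows) in each library (columns) minus the mean of that gene over the 8 libraries, with vehicle mice left and rFGF4 mice right of the black line. The fibrinogen rows share their high and low libraries, *Alb* is lowest in vehicle mouse 3, *Hp* is highest in vehicle mice 3 and 5, and *Trf* is highest in rFGF4 mouse 1.

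The direction of 8 members held with any 1 library left out, while that of *Alb* did not. For *Fga*, *Fgg*, *Fgb* and *Trf* the lowest value came from leaving out rFGF4 mouse 1, for *Ttr* from leaving out vehicle mouse 5 and for *Serpina1a* from leaving out rFGF4 mouse 2. Scaling the libraries to a common median ratio lowered the log2 fold change of every member, to 1.31 for *Fga*, 0.89 for *Fgb*, 1.24 for *Fgg*, 1.80 for *Ttr* and 0.47 for *Serpina1a*, and turned none of them.

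**Figure D5:**
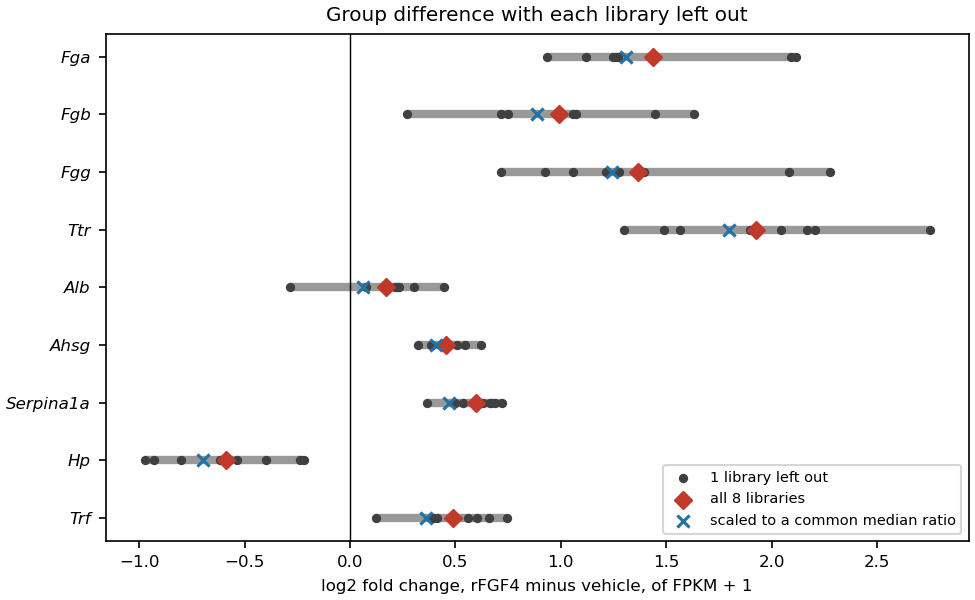
Log2 fold change of FPKM + 1, rFGF4 minus vehicle, of each gene with all 8 libraries (red), with 1 library left out (dark points, range in grey) and with libraries scaled to a common median ratio (blue crosses). The range crosses 0 for *Alb* and lies below 0 for *Hp*.

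Other genes that the liver secretes were mixed. Of 27 such genes 18 were tested, and 3 passed the threshold upward and 0 downward, with a median log2 fold change of 0.10 beside 0.09 for all tested genes. *Apoa1*, the main protein of high-density lipoprotein, measured 6.42, 8.88, 9.19 and 3.75 FPKM in rFGF4 mice 1, 2, 3 and 5 and 3.47, 1.79, 1.45 and 3.42 FPKM in vehicle mice 2, 3, 4 and 5. Every rFGF4 mouse lay above every vehicle mouse, with a log2 fold change of 1.18 (standard error 0.30, limma, adjusted p = 0.918) that passed the threshold in all 13 alternatives. *Gc*, the vitamin D binding protein, and *Itih2*, an inter-alpha-trypsin inhibitor chain, also passed, at 0.62 and 0.64, with overlapping groups and in 8 and 4 of 13 alternatives. *Gc* did not pass with scaled libraries (0.49), with a replicate block (0.52) or without vehicle mouse 4 (0.53), vehicle mouse 5 (0.57) or rFGF4 mouse 2 (0.47). *Itih2* did not pass with scaled libraries (0.56), without the filter (0.64) or without any 1 mouse other than rFGF4 mouse 1, with values from 0.48 to 0.69. The abundant *Kng2* (kininogen, 98.3 to 154 FPKM with rFGF4 and 99.6 to 186 with vehicle) did not pass. *F2* (prothrombin) and *F9* stayed at or below 0.136 FPKM, and *A1bg* was listed at the placeholder for 0 in every library.

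Fibrinogen is 1 of the acute phase proteins, and 24 other genes of that response were listed. Of the 18 tested, 17 had a log2 fold change above 0 (67.1% of all tested genes did) with a median of 0.41, and 0 passed the threshold in either direction. *C3*, the central complement component, measured 670, 244, 142 and 39.3 FPKM in rFGF4 mice 1, 2, 3 and 5 and 14.1, 170, 39.6 and 278 FPKM in vehicle mice 2, 3, 4 and 5, so that both groups held low and high mice. *Lcn2* was likewise high in rFGF4 mouse 1 (356 FPKM), at 120 and 131 FPKM in vehicle mice 3 and 5 and at 3.04 FPKM in vehicle mouse 2. *Crp*, *Apcs* and *Fgl1*, typical products of the liver, did not exceed 0.691 FPKM. The median of this list was -0.029 without rFGF4 mouse 1, 0.14 without vehicle mouse 2, 0.22 without vehicle mouse 4, 0.65 without vehicle mouse 5 and -0.21 with the replicate block.

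The interleukin-6 and gp130 pathway, which drives fibrinogen genes in the liver, had 18 tested genes of 21, with 16 above 0 (67.1% of all tested genes were), a median log2 fold change of 0.33 and 0 past the threshold in either direction. The median was 0.13 without rFGF4 mouse 1, 0.18 without vehicle mouse 2, 0.56 without rFGF4 mouse 5, 0.59 without vehicle mouse 5 and -0.038 with a replicate block. The ligand *Il6* stayed at or below 0.229 FPKM in every library, and the receptor *Il6ra* measured 0.251 to 2.43 FPKM. Of the other ligands that signal through gp130, *Clcf1* measured 1.77 to 29.5 FPKM, *Lif* reached 3.07, *Il11* 1.79 and *Osm* 1.37, each highest in rFGF4 mouse 1, and *Il11* and *Osm* did not pass the filter on low values. *Ctf1*, another such ligand, measured 1.63 to 2.81 FPKM with rFGF4 and 1.74 to 2.90 with vehicle, with its highest value in vehicle mouse 2 and a log2 fold change of 0.0062. *Stat3*, the transcription factor of the pathway, measured 20.6, 17.7, 11 and 8.13 FPKM in rFGF4 mice 1, 2, 3 and 5 and 4.58, 14.3, 5.41 and 11.7 FPKM in vehicle mice 2, 3, 4 and 5. The groups overlapped, the log2 fold change was 0.67 (standard error 0.40) and it did not pass. Over the 8 libraries Pearson's r of *Stat3* with the mean of the fibrinogen chains was 0.892 and Spearman's rho 0.929. Other list genes were at least as alike by r, among them *Spp1* (0.920) and *Sox9* (0.916) of the injury list and *Mt2* (0.917) of the acute phase list. The shared receptor *Il6st* measured 9.93 to 18.5 FPKM with rFGF4 and 9.13 to 14.9 with vehicle, and the kinase *Jak1* 13.1 to 24.6 and 11.8 to 20.1 FPKM. The transcription factor genes *Cebpb* and *Junb* had log2 fold changes of 0.92 and 1.18, with standard errors of 0.53 and 0.70, and did not pass.

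The liver-enriched transcription factors were represented by those that the kidney also uses. *Hnf4a* measured 76.6 to 148 FPKM with rFGF4 and 81.7 to 130 with vehicle, and *Nr1h4* (the bile acid receptor FXR) 23.4 to 47.4 and 24.9 to 44.0 FPKM. *Foxa2*, *Foxa3*, *Nr5a2*, *Onecut1* and *Creb3l3* stayed under 0.5 FPKM everywhere. Of 12 tested genes 1 passed upward and 0 downward. It was *Ppara*, the receptor of the fatty acid oxidation program, at 3.27, 7.86, 15.6 and 6.88 FPKM in rFGF4 mice 1, 2, 3 and 5 and 3.26, 0.991, 4.63 and 2.19 FPKM in vehicle mice 2, 3, 4 and 5, with overlapping groups. The log2 fold change of *Ppara* was 1.26 (standard error 0.45, limma, adjusted p = 0.918), and it did not pass with scaled libraries (1.16), without vehicle mouse 3 (0.98) or without rFGF4 mouse 3 (0.93).

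Downstream of fibrinogen, 17 of 27 coagulation and fibrinolysis genes were tested and 0 passed in either direction, with a median log2 fold change of 0.10 that turned to -0.0035 without vehicle mouse 4 and to -0.14 with the replicate block. The most abundant was *Plau* (urokinase) at 95.2 to 239 FPKM with rFGF4 and 104 to 246 with vehicle, followed by *Serpinf2* (the plasmin inhibitor, 8.67 to 65.8 and 35.8 to 55.7 FPKM), *Proc* and *F13b*. Of the 8 genes for cell receptors of fibrinogen 7 were tested and 0 passed in either direction (median log2 fold change 0.35). The sign of this median turned without vehicle mouse 2 (-0.038), vehicle mouse 4 (-0.094) or rFGF4 mouse 1 (-0.13) and with the block (-0.31). *Icam1*, *Itgb2* and *Itgam*, the last 2 being the chains of the leukocyte integrin Mac-1, were highest in rFGF4 mouse 1 and vehicle mouse 5, with *Itgb2* at 24.7 and 32.1 FPKM there and at 0.730 to 9.36 FPKM in the other 6 mice.

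The 18 genes for uptake and handling of these plasma proteins included 16 tested genes, of which 1 passed upward and 0 downward, with a median log2 fold change of 0.14. *Lrp2* (megalin) measured 25.8 to 82.6 FPKM with rFGF4 and 32.1 to 73.9 with vehicle, and the ferritin chains *Fth1* (1006 to 1130.0 and 838 to 1189 FPKM) and *Ftl1* were the most abundant. *Insr*, the insulin receptor, listed for the action of fetuin-A on it, measured 3.87, 1.5, 1.04 and 4.45 FPKM in rFGF4 mice 1, 2, 3 and 5 and 0.620, 0.506, 0.778 and 1.01 FPKM in vehicle mice 2, 3, 4 and 5. The groups did not overlap, and the log2 fold change was 0.99 (standard error 0.32, limma, adjusted p = 0.918), with the threshold passed in all 13 alternatives.

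Blood left in the tissue was described by red blood cell genes, which summed to 120.3, 1556, 437 and 2657 FPKM in rFGF4 mice 1, 2, 3 and 5 and to 3793, 4325, 2700.4 and 1139 FPKM in vehicle mice 2, 3, 4 and 5. Of 5 such genes 0 passed in either direction and 0 had a log2 fold change above 0 (67.1% of all tested genes did). Their median log2 fold change was -1.97, and the groups overlapped. Mouse 1 of the rFGF4 group, the highest in fibrinogen, was the lowest in red cell genes. Platelet genes, of interest since platelets carry fibrinogen, summed to 2.25 to 7.37 FPKM with rFGF4 and 2.37 to 12.6 with vehicle, and 0 of the 3 tested passed. Pancreas markers stayed under 0.5 FPKM for 8 of 9 genes, with *Cela1* as the exception, and of 7 adipocyte genes *Fabp4*, which endothelium also makes, passed downward (log2 fold change -0.73, standard error 0.26, limma) while *Adipoq*, *Plin1* and *Lep* reached at most 0.186 FPKM. Of the podocyte genes, *Synpo*, an actin-binding protein of foot processes, passed upward (0.87, standard error 0.30, limma). *Fabp4* did not pass without vehicle mouse 2 or 3 or rFGF4 mouse 2 or 3 (-0.67 to -0.60) or with a replicate block (-0.74). *Synpo* did not pass without vehicle mouse 3 or rFGF4 mouse 2 or 5 (0.69 to 0.76). The other lists, proximal tubule, thick ascending limb, distal convoluted tubule, collecting duct, endothelium and macrophage, had 0 genes past the threshold.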

How the data were processed

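Kidney poly(A) RNA of 8 mice was sequenced as paired-end reads. Per the labels, the submitters' processing notes name HISAT2 2.0, Bowtie 0.12.2, StringTie 1.3.0 and the mm8 build. The authors assembled transcripts, merged them over libraries and deposited FPKM per gene for 55401 Ensembl identifiers, with 0.0001 in place of 0 (57.5% of values). The deposited fold change, log2 fold change, p-value and q-value columns of the authors' comparison were not used. Whether strand was kept was not given in the sources used here.

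Of the identifiers, 99.5% were found in GENCODE M21 (GRCm38), from which coordinates were taken. Genes at 0.5 FPKM or more in at least 4 libraries were compared as log2(FPKM + 1) with limma 3.58.1 (trended moderated test) in R 4.3.3, since the count model named by the study needs read counts. The procedure was tested on simulated data. Tables and figures used Python 3.11.15, pandas 2.3.3, numpy 2.4.6 and matplotlib 3.10.9.

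Members, gene lists and motifs were chosen with earlier results of these data known. Of each list, genes past the threshold, the 4 most abundant and genes whose low level matters were named, and the 5 genes most like fibrinogen. Genes named beyond this rule were chosen after their values were seen. Promoter windows came from RefSeq. The p-values measure the spread between 8 mice. Alternatives were a pseudocount of 0.1, scaled libraries, no filter, array weights, a replicate block and each mouse left out. The values of some list genes are not reported here.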

Additional observations from a re-analysis of the deposited data

Results flagged for a closer look

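In the groups of 4 mice, a library was looked for whose gap to the nearest other exceeded Dixon's critical share of the range of its group, with genes taken as log2(FPKM + 1) and sums as FPKM. Of 62 groups 4 were found, where chance gives about 3.1, or 1 in 20. *Fga* in the vehicle group had a ratio of 0.860, since vehicle mouse 3 measured 64.1 FPKM and the others 7.26 to 10.0. *Trf* in the vehicle group had 0.936, with 34.7 FPKM in vehicle mouse 5 and 16.1 to 17.0 in the others. The macrophage sum of the vehicle group had 0.830, with 534 FPKM in vehicle mouse 5 and 29.0 to 115 in the others. The thick ascending limb sum of the rFGF4 group had 0.856, with 963 FPKM in rFGF4 mouse 1 and 1327 to 1388 in the others.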

How the results depend on the processing

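Of 99 alternative values of the 9 members' log2 fold changes, 97 kept their sign and moved by less than 1 SD between mice. The exceptions were *Ahsg* at 1.0 with a pseudocount of 0.1 FPKM and *Alb* at -0.29 without vehicle mouse 3. Most alternatives left out 1 mouse, which cannot move a group mean by 1 such SD, so the size limit could not fail there. The 97 also include values far below the main ones, with the replicate block 0.03 for *Fgb*, 0.41 for *Fgg* and 0.03 for *Trf*. The count is therefore no measure of stability. With 1 mouse left out, *Alb* ranged from -0.29 to 0.45. The 231 genes past the study's threshold became 348 with a pseudocount of 0.1, 490 with array weights, 174 with scaled libraries and 199 without the filter. With 1 mouse left out they ranged from 187 (without rFGF4 mouse 2) to 575 (without rFGF4 mouse 5), and were 432 without vehicle mouse 5. The 165 higher genes became 249 with a pseudocount of 0.1, 93 with scaled libraries and 363 with array weights, and 127 to 419 with 1 mouse left out. The 66 lower genes became 127 with array weights and 81 with scaled libraries, and 51 to 156 with 1 mouse left out. The 0 genes at an adjusted p under 0.05 became 0 to 1 with 1 mouse left out. The cause of these shifts was not tested.

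For the mouse numbers 2, 3 and 5 that both groups carry, same-numbered mice deviated from their group means with correlations of -0.23, -0.16 and -0.39. So few correlations cannot decide whether the numbers pair the mice. With a replicate block for these numbers, 262 genes passed the threshold, 182 higher and 80 lower, and the log2 fold changes were 0.75 for *Fga*, 0.03 for *Fgb*, 0.41 for *Fgg*, 2.44 for *Ttr*, 0.27 for *Alb*, 0.39 for *Ahsg*, 0.57 for *Serpina1a*, -1.19 for *Hp* and 0.03 for *Trf*. Of the other genes called, *Gc* (0.52) and *Fabp4* (-0.74) did not pass with the block. The block, which leaves 3 mice per group to inform the comparison, also turned the list medians of hepatocyte genes (to 0.12), acute phase genes (-0.21), interleukin-6 genes (-0.038), coagulation genes (-0.14), fibrinogen receptors (-0.31) and tubular injury genes (-0.14).

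Other list medians that turned were those of the hepatocyte genes, at 0.0053 without the filter, and of liver-enriched factors, at -0.024 with scaled libraries. With 1 mouse left out, medians ranged from -0.30 to 0.19 (turned without rFGF4 mouse 1) for hepatocyte genes, from -0.029 (without rFGF4 mouse 1) to 0.65 for acute phase genes, from -0.0035 (without vehicle mouse 4) to 0.28 for coagulation genes and from -0.13 to 0.72 for fibrinogen receptors, which turned without vehicle mouse 2, vehicle mouse 4 or rFGF4 mouse 1. The medians that kept their sign ranged from 0.17 to 1.12 for tubular injury genes, 0.13 to 0.59 for interleukin-6 genes, 0.032 to 0.20 for other secreted liver proteins, 0.061 to 0.61 for the *Serpina1* paralogs, 0.031 to 0.19 for liver-enriched factors and 0.089 to 0.19 for uptake and handling genes. Of the likeness values, *Cdhr5* moved most, to a rho of 0.857. Absolute depth is unknown without counts, so the counting error of values near 0.5 FPKM could not be given.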
